A study of Mus musculus with 34 samples.

Results

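The livers described here are 5 mouse livers labelled as having one exon-skipping isoform of beta-catenin alone, compared with 2 wild type livers. They were chosen by their labels and not by any measured value. Together they are 7 of the 18 libraries in the deposited table of normalized counts and 7 of the 34 samples of the series. Of the 5 livers, 3 had the skip 1 isoform alone and 2 had the skip 2 isoform alone. The series made these isoforms by CRISPR-induced exon skipping, and the labels do not say which exons the isoforms lack. All of these groups, wild type included, carry hydrodynamic injection as their treatment label, a fast tail-vein delivery that brings plasmids into hepatocytes. They also share an extraction label that names frozen liver tumours, so the labels alone do not say whether the wild type tissue came from a tumour-bearing animal. Age, sex, strain and the share of cells that carried an isoform are not in the labels used here. For the skip 2 livers the source label says skip 2 while another label field repeats skip 1, and the source label was used. The labels do not tell whether replicate libraries were taken from different mice, so every p-value measures only the spread between the libraries fitted, which may be technical. That spread is estimated over all 18 libraries of the table, 11 of them induced samples, and not over these 7 livers alone. In the pooled comparison the 5 isoform livers share 1 mean, so any difference between skip 1 and skip 2 counts as spread there.

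Beta-catenin, encoded by Ctnnb1, ties cadherins to the actin cytoskeleton and carries the Wnt signal into the nucleus. A destruction complex that includes Apc, Axin proteins and Gsk3 marks it for degradation through sites near its N terminus, and forms without those sites accumulate and can drive Wnt target genes. In the liver it maintains the pericentral programme of hepatocytes near the central vein, such as glutamine synthetase (Glul) and Cyp2e1, opposite the periportal programme of urea and gluconeogenic enzymes. Hepatocytes also make the acute-phase proteins of inflammation, with serum amyloid A (Saa1, Saa2) among the most inducible, and they follow the circadian clock and feeding. The comparison asks whether an isoform alone shifted any of these programmes away from wild type liver.

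The results below turn on acute-phase genes and on clock-controlled genes, and the promoters of 4 of them are shown because the results refer to them as examples of each set. The sequences are RefSeq's for GRCm38.p6, read 5′ to 3′ on the gene's strand and ending at the base before the gene's annotated start. The Saa2 sequence is shorter because it stops where GENCODE's first exon begins, upstream of RefSeq's start. Capitals mark matches to a C/EBP motif (TTNNGCAA) in Saa2, Saa1 and Orm2, and to a D-box (TTATGTAA) in Per3. Saa2 lies at chr7:46751583-46751789 on the plus strand, Saa1 at chr7:46742981-46743230 on the minus strand, Orm2 at chr4:63362199-63362448 on the plus strand and Per3 at chr4:151044666-151044915 on the minus strand.
Saa2: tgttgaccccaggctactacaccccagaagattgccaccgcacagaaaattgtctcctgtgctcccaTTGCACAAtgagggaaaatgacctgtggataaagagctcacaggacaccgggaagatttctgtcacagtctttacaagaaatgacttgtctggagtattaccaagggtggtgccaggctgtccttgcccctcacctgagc
Saa1: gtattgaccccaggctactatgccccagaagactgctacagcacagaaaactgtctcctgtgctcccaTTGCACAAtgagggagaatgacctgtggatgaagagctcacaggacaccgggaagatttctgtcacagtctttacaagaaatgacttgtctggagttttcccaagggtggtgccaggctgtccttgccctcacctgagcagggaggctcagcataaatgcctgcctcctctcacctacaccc
Orm2: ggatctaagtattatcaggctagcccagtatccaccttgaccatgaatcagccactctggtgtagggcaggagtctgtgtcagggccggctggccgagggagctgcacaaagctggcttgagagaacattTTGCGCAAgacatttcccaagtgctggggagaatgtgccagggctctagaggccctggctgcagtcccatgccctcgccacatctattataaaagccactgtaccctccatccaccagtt
Per3: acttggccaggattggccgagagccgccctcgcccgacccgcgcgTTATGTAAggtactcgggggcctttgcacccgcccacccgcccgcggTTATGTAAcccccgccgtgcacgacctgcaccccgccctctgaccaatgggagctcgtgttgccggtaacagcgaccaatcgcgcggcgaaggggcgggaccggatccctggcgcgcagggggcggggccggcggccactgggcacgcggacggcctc
Counted from RefSeq's start, the first base of the C/EBP match lay 183 bases before the start of Saa2, 182 before that of Saa1 and 120 before that of Orm2, and the D-box matches of Per3 began 205 and 158 bases before its start. The 250-base windows of Saa1 and Saa2 differed by 13 single-base edits, so reads of these neighbouring paralogs may be shared between them where their transcripts are as alike. Neither the NF-kB consensus motif nor a STAT motif (TTCNNNGAA) was found in the Saa2, Saa1 and Orm2 windows shown, and the Per3 window held no E-box (CACGTG). Over all 32851 promoters of 250 bases, both strands searched, 9.56% held the C/EBP motif, 7.02% the STAT motif, 3.90% the NF-kB motif, 6.02% the E-box and 0.819% the D-box. Of 24 acute-phase genes tested, 19 had a promoter in the table, and 10 of those held the C/EBP motif, 7 the STAT motif and 1 the NF-kB motif. Of 11 clock output genes tested, 9 had a promoter, with an E-box in 2 (Per1 and Tef) and a D-box in 1 (Per3). A match describes letters in a window and is neither a binding site nor a cause.

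The 7 libraries were shallow, with 385526 (skip 1 alone replicate 1) to 734822 (wild type replicate 2) estimated reads. At that depth 3 reads are worth a normalized count of 2.49 to 4.93, so values below about that level are listed but carry little information. Where a group lies at or under it, as wild type does for Ptpn14, Igfbp1, Lcn2 and Ifit3, the fitted difference depends on the pseudocount and is no bound. Pearson correlations of log2(value + 1) between pairs of these livers, across genes, ran from 0.889 to 0.938, and the wild type pair (0.909) was no more alike than several pairs from different groups. Skip 1 alone replicate 1, the shallowest library, stood apart on the first principal component at 37.2, against -19.2 to 8.46 for the other 6 livers. Values without it are given for Galk1, Ahnak, D330041H03Rik, B430010I23Rik and the acute-phase genes that its omission changes. The labelled tissue matched its markers: the summed normalized count of 14 hepatocyte genes was 77920 and 77030 in wild type and 94110 to 101100 in the isoform livers, with Alb the highest of them.

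In the pooled comparison of 5 isoform livers against 2 wild type livers, no gene passed the test. The test covered 6592 genes whose mean normalized count over the 18 libraries reached 10 or more. Of them limma called 0 (0%) at an adjusted p under 0.05, and voom on estimated reads also called 0. At an unadjusted p under 0.05, limma gave 245 genes (3.72%), 157 higher (2.38%) and 88 lower (1.33%), and voom gave 241. Wild type and isoform livers did not overlap in 568 genes (8.62%), of which 339 were higher (5.14%) and 229 lower (3.47%) with an isoform. The half-width of the 95% confidence interval of a log2 difference had a median of 0.68, and for 3983 genes (60.4%) the interval lay wholly within 1 log2 unit either way. The median half-width was 0.76 for the 3760 genes with a mean of 10 to 30, and 0.55 for the 740 genes with a mean above 100. Some differences well above these half-widths were not called with these 7 livers. Examples are pooled differences of 1.84 for Ptpn14, -1.51 for Galk1 and 3.30 for Saa2. The intervals are not adjusted for the number of genes tested, so their half-width is not a limit of detection.

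**Figure D1:**
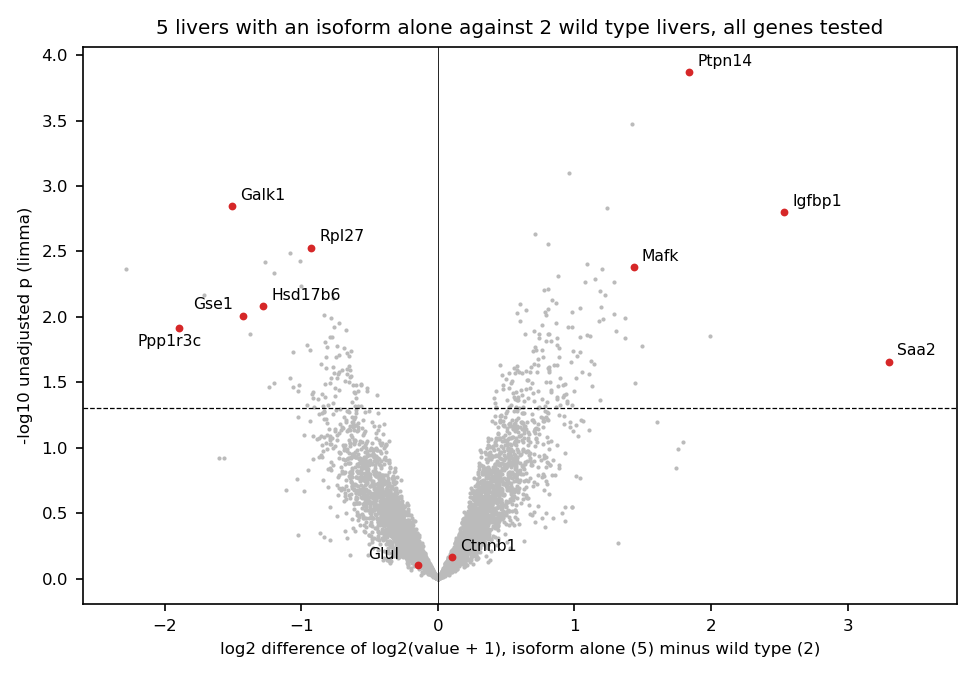
Log2 difference of log2(normalized count + 1), 5 isoform livers minus 2 wild type livers, against -log10 of the unadjusted limma p for 6592 genes, with the dashed line at 0.05 and 11 named genes in red. Ptpn14 has the smallest p, while Ctnnb1 and Glul lie near 0, and none of the 6592 genes passed after adjustment.

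Ptpn14, which encodes a tyrosine phosphatase that binds YAP (chr1:189728268-189876695, mm10, plus strand), had the smallest unadjusted p of all genes. Its normalized count was 2.27 and 0 in wild type, 6.58, 5.75 and 5.33 with skip 1 alone, and 3.47 and 6.87 with skip 2 alone. All 5 isoform livers were above both wild type livers, but the wild type values lie under what 3 reads are worth. The log2 difference was 1.84 (SE 0.40, interval 1.02 to 2.67, limma adjusted p = 0.892), and its size depends on the pseudocount. Igfbp1, a fasting- and stress-induced binding protein of insulin-like growth factors (chr11:7197782-7202546, plus strand), was as low in wild type, at 0 and 1.66. It reached 6.58, 11.5 and 6.39 with skip 1 alone and 12.7 and 6.87 with skip 2 alone, a difference of 2.53 (SE 0.70, limma adjusted p = 1). Both genes rest on a handful of reads per library.

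Among non-overlapping genes whose higher group averaged 50 or more, those that were higher with an isoform and had the smallest p differed by 0.61 to 1.21 log2 units. Cap1, an actin-recycling cyclase-associated protein (chr4:122859047-122886056, minus strand), was at 44.2 and 48.2 in wild type against 80.6, 77.6, 73.6, 69.4 and 81.1 in the isoform livers. The 5 isoform values were tight and well clear of wild type, with a difference of 0.71 (SE 0.21, limma adjusted p = 1). Tmem176b, a membrane protein best known in immune cells, was at 103 and 122 in wild type, 213, 144 and 161 with skip 1 alone and 278 and 215 with skip 2 alone. Its difference was 0.81 (SE 0.24), with the skip 2 livers above all others. Prepl, a serine hydrolase of the prolyl oligopeptidase family, was at 289 and 345 in wild type against 627, 1040, 473, 770 and 880, a difference of 1.21 (SE 0.43). Ahnak, a giant scaffold protein of the cell cortex, was at 59.2 and 61.6 against 163, 83.9, 81.7, 115 and 99, with the highest value in skip 1 alone replicate 1. Its difference was 0.78 (SE 0.27), and 0.63 without that liver.

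The same direction was seen for Copb2, a coat protein of Golgi vesicles, at 48.7 and 55.7 in wild type and 61.8 to 99.1 in the isoform livers (difference 0.61, SE 0.22). Idua, a lysosomal enzyme, was at 66.8 and 45.7 against 71.4 to 112 (0.76, SE 0.28). Ppp2r1b, a scaffold subunit of protein phosphatase 2A, was at 97.8 and 79.3 against 130 to 173 (0.70, SE 0.27). Gnat1, known as the rod transducin subunit, was at 55.5 and 33.2 against 118, 161, 75.7, 69.4 and 64.5, highest in the skip 1 livers (1.08, SE 0.35). Nsun5, an rRNA methyltransferase, had a difference of 0.74. Loci that carry provisional names are also among these genes, D330041H03Rik (0.88), B430010I23Rik (0.64) and Gm11747 (0.64). B430010I23Rik and Gm11747 are annotated as antisense, and whether counting used the strand is not given in the sources used here. D330041H03Rik stood at 145 and 143 in wild type and 243 to 360 in the isoform livers. Both it and B430010I23Rik were highest in skip 1 alone replicate 1, and without that liver their differences were 0.77 and 0.52.

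**Figure D2:**
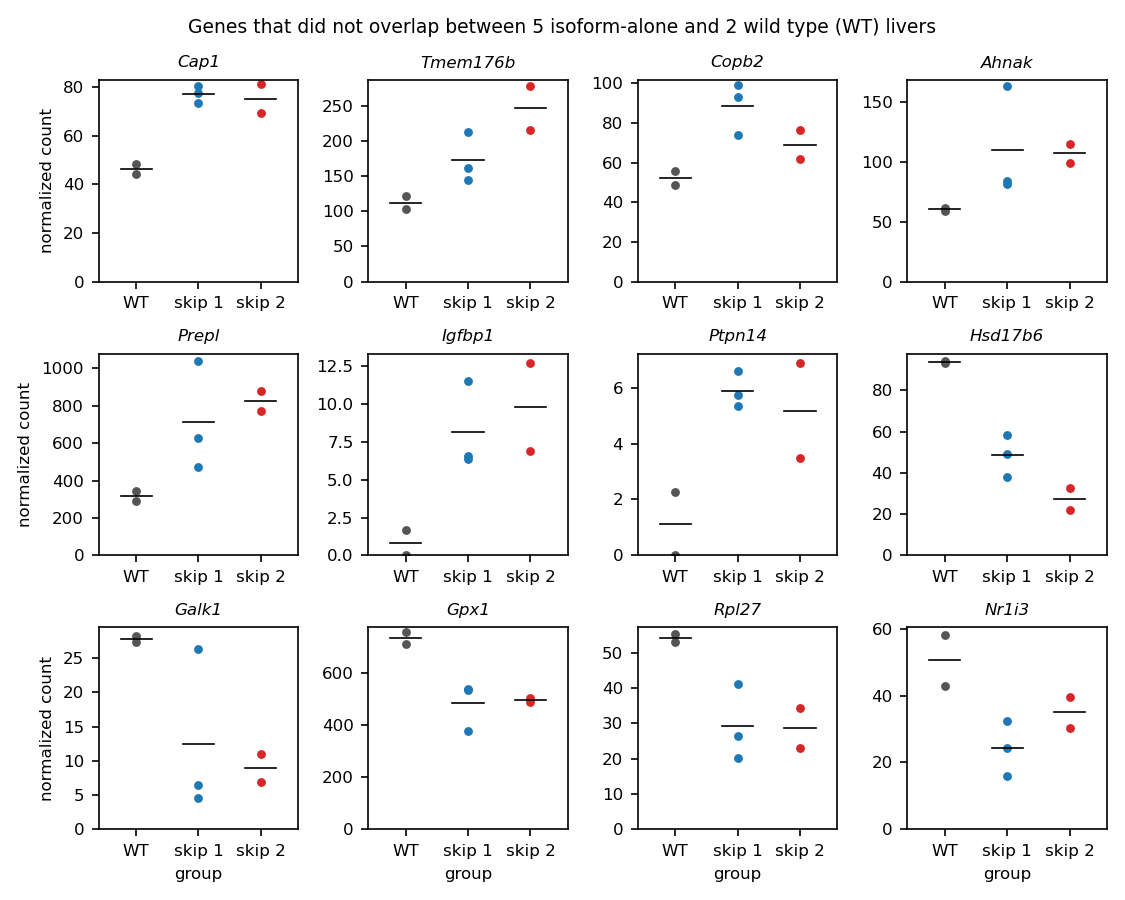
Normalized counts of 12 genes in each liver, wild type in grey (2), skip 1 alone in blue (3) and skip 2 alone in red (2), with a line at each group's mean; each vertical axis starts at 0. The panels hold only genes picked for having no overlap, so the wild type points are all above or all below the 5 isoform points. Examples are Cap1 (44.2 and 48.2 against 69.4 to 81.1) and Hsd17b6 (94.1 and 93.3 against 22.2 to 58.2).

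Of the genes that were lower with an isoform, Hsd17b6, a steroid- and retinol-metabolizing enzyme of hepatocytes (chr10:127990936-128007611, minus strand), differed most among the genes chosen by the same rule. Its normalized count was 94.1 and 93.3 in wild type, 38.1, 48.9 and 58.2 with skip 1 alone and 32.7 and 22.2 with skip 2 alone. The 3 groups did not overlap, and skip 2 was lowest. The pooled difference was -1.28 (SE 0.44, limma adjusted p = 1), made up of -0.96 for skip 1 and -1.76 for skip 2, which share the wild type livers. In the skip 2 comparison alone, voom called it at -1.92 (adjusted p = 0.0353), while limma gave an adjusted p of 0.669. Galk1, the first enzyme of galactose use (chr11:116008457-116012719, minus strand), was at 28.3 and 27.4 in wild type and at 4.6, 6.39, 6.94 and 11 in 4 isoform livers. Skip 1 alone replicate 1 was the exception at 26.3, close to wild type. The pooled difference was -1.51 (SE 0.41, limma adjusted p = 1).

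Nr1i3, the xenobiotic receptor CAR, was at 58.3 and 42.9 in wild type, 24.3, 15.8 and 32.4 with skip 1 alone and 30.4 and 39.7 with skip 2 alone (-0.85, SE 0.39). Gpx1, a glutathione peroxidase, was at 710 and 754 against 376 to 537 (-0.60, SE 0.26). Esrp2, an epithelial splicing regulator of adult hepatocytes, was at 49.8 and 52.4 against 22 to 43.7 (-0.64, SE 0.27). Hoga1, an enzyme of hydroxyproline breakdown, was at 64.6 and 71.5 against 27.7 to 50.1 (-0.76, SE 0.32). The transcription factor Rreb1 was at 53.4 and 71.5 against 35.6 to 44.2 (-0.66, SE 0.26). None of these overlapped with wild type, which the rule that chose them requires, and each had an adjusted limma p of 1. Cep350 (-0.44) and Nfic (-0.51) belong to the same group.

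The ribosomal genes Rpl27 and Rps25 were also chosen by the rule. Rpl27 was at 55.5 and 53.2 in wild type against 41.1, 26.5, 20.2, 23.1 and 34.3 (-0.93, SE 0.28, limma adjusted p = 1). Rps25 had a difference of -0.51. Because of these, all cytosolic ribosomal protein genes were looked at after their values were seen. Of 75 tested, 62 were below 0, the median difference was -0.25 against 0.01 over all genes tested, 6 were lower at an unadjusted p under 0.05 (1.33% of all genes were) and none was higher (2.38%). No overlap with wild type was seen for 18 that were lower and 1 that was higher, where 3.47% and 5.14% of all genes were. Their summed normalized count was 6310 and 7153 in wild type, 5930, 5506 and 5620 with skip 1 alone and 6136 and 6061 with skip 2 alone. Ribosomal protein genes have many near-identical pseudogene copies, so counts of single members are uncertain.

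The pooled count of 0 changed when some single libraries were left out. Without wild type replicate 1, Ptpn14 was called (2.69, limma adjusted p = 0.0284). Without wild type replicate 2, Mafk (2.67) and Col4a1 (2.29) were called, and without skip 1 alone replicate 1, Galk1 was called (-1.87). Mafk, a small Maf transcription factor, was at 1.13 in wild type replicate 1 and 10.8 in wild type replicate 2, against 9.61 to 21.4 in the isoform livers, so its groups overlapped. Its pooled difference was 1.43 (SE 0.45).

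Taken one isoform at a time, skip 1 alone against wild type gave 0 genes called by limma (0%) and 0 by voom, with 272 at an unadjusted p under 0.05 (4.13%, 2.46% higher and 1.67% lower; voom gave 185). Its groups did not overlap in 17.8% of genes, 9.69% higher and 8.13% lower. Without 1 of 3 libraries a single gene was called, Mafk without wild type replicate 2 (2.87), Galk1 without skip 1 alone replicate 1 (-2.17) or Gse1 without skip 1 alone replicate 2 (-2.61). Gse1, a coiled-coil protein, was at 13.7 and 20.1 in wild type and at 1.65, 13.9 and 2.14 with skip 1 alone. Skip 2 alone against wild type gave 1 gene called (0.0152%), with 330 at an unadjusted p under 0.05 (5.01%, 2.34% higher and 2.67% lower). Voom called 4 genes and gave 296 at an unadjusted p under 0.05. The groups did not overlap in 35.5% of genes, 20.7% higher and 14.8% lower. The gene that limma called was Saa2. Skip 2 alone against skip 1 alone, a comparison that uses no wild type library, gave 0 called by limma (0%) and 4 by voom, with 440 at an unadjusted p under 0.05 (6.67%, 2.94% higher and 3.73% lower; voom gave 287). Its groups did not overlap in 22.1% of genes, 11.8% higher and 10.3% lower.

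Ctnnb1 itself (chr9:120929216-120960507, plus strand) did not set the isoform livers apart. Its normalized count was 128 and 148 in wild type, 125, 151 and 148 with skip 1 alone and 177 and 143 with skip 2 alone. The groups overlapped, and the pooled difference was 0.10 (SE 0.24, interval -0.40 to 0.61, limma adjusted p = 1). Counts per gene do not show which exons the transcripts held. In the induced samples of the same table it was 580 to 1270 for skip 1 and 444 to 457 for skip 2, above every liver here, and 135 to 199 for dN90, which overlaps them. Of 13 genes of the destruction complex and adhesion partners, 11 were tested and 0 had an unadjusted p under 0.05 in the pooled limma comparison. Ctnna1, the alpha-catenin that links beta-catenin to actin, was at 77 and 73.1 in wild type against 85.1 to 101 (0.31, SE 0.18). The scaffold Apc was at 29.6 and 31.6 against 33.1 to 38 (0.21, SE 0.27). Those were the 2 members without overlap, both higher, where 5.14% of all genes were. Between isoforms, the kinase Gsk3a was at 17.3 and 26.1 with skip 2 against 31.2, 40.3 and 30.9 with skip 1 (-0.65, limma adjusted p = 0.64).

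Wnt feedback genes, which beta-catenin switches on in many cells, showed no shift that this design could detect. Of 13 listed, 7 were tested, 3 were above 0, the median pooled difference was -0.10 against 0.01 over all genes, and 0 had an unadjusted limma p under 0.05. Axin2, the most widely used of these targets, was at 2.27 and 9.14 in wild type, 1.64, 6.9 and 5.33 with skip 1 alone and 2.31 and 4.12 with skip 2 alone. Wild type replicate 2 was the highest, and the difference of -0.30 had an interval of -1.41 to 0.81. In the induced samples Axin2 ran from 7.95 to 26.7. Notum, a secreted Wnt inhibitor, differed by -0.10, the receptor-clearing ligase Rnf43 by 0.12 and the cell-cycle gene Ccnd1 by 0.16. Tbx3, a transcription factor, differed by -0.33 and the receptor Tnfrsf19 by -0.34. The stem-cell receptor Lgr5 was too low to be tested, at 0 and 9.14 in wild type and 2.31 to 6.39 in the isoform livers.

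The pericentral programme showed no detectable shift in the pooled comparison. Of 18 listed genes 16 were tested, 11 were above 0, the median difference was 0.07 and 0 had an unadjusted limma p under 0.05. Glul was at 543 and 561 in wild type, 528, 329 and 510 with skip 1 alone and 546 and 636 with skip 2 alone. Skip 1 alone replicate 2 was the low one, and the pooled difference was -0.15 (SE 0.55, interval -1.28 to 0.99). Fitted on the 7 livers alone, without the induced samples, its SE was 0.23. Oat, which makes glutamate from ornithine, was the 1 member without overlap, at 281 and 337 against 371 to 584 (0.54, SE 0.51). Of all genes 5.14% were higher without overlap. The glutamate transporter Slc1a2 was at 138 and 93.9 in wild type against 222, 107, 157, 224 and 266 (0.71, SE 0.68).

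Between the isoforms, all 16 pericentral genes had a positive difference, skip 2 minus skip 1, with a median of 0.57 against 0.01 over all genes. Of these 1 had an unadjusted limma p under 0.05, and 7 did not overlap, where 2.94% and 11.8% of all genes were higher by those measures. The 1 was Cyp2e1, an alcohol- and drug-oxidizing enzyme, at 3660 and 2890 in wild type, 3350, 1790 and 3500 with skip 1 alone and 5170 and 4380 with skip 2 alone. Its difference between isoforms was 0.78 (SE 0.33, limma adjusted p = 0.656). The summed level of the 18 genes was 8355 and 7174 in wild type, 8102, 4847 and 8581 with skip 1 alone and 11610 and 10390 with skip 2 alone. Skip 1 alone replicate 2 was far below the rest, and both skip 2 livers were above every other liver.

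Periportal genes had a median pooled difference of 0.11 over the 16 listed and tested, with 12 above 0. Hsd17b6 was the 1 with an unadjusted limma p under 0.05 and was lower, as were 1.33% of all genes at that threshold. Cps1, the entry enzyme of the urea cycle, was at 3570 and 2940 in wild type against 3600 to 5060 (0.38, SE 0.53), and Hsd17b13, a lipid-droplet protein, at 72.6 and 71.6 against 79.1 to 148 (0.56, SE 0.39). Cyp2f2, a classic periportal marker, was at 865 and 645 against 607 to 1030 (0.03, SE 0.74). The plot of beta-catenin and zonation genes shows how wide most of these intervals were.

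**Figure D3:**
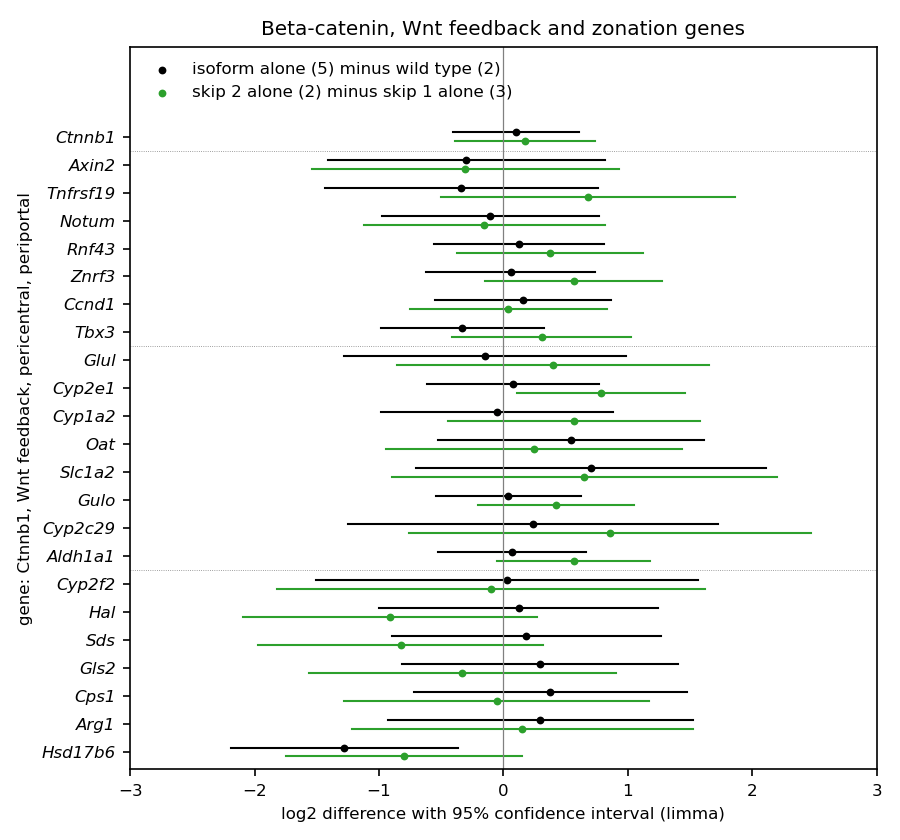
Log2 difference with its 95% confidence interval (limma) for Ctnnb1, 7 Wnt feedback genes, 8 pericentral and 7 periportal genes, in black for 5 isoform livers minus 2 wild type livers and in green for skip 2 alone (2) minus skip 1 alone (3). Only Hsd17b6 has a black interval that excludes 0, and all 8 pericentral genes shown lie above 0 between the isoforms.

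YAP is a transcriptional co-activator of growth genes that is named in labels of other samples of the series, and its targets were examined in these livers. Of 14 listed, 10 were tested, 6 were above 0, the median was 0.13 and Ptpn14 was the 1 with an unadjusted limma p under 0.05. At that threshold 2.38% of all genes were higher. Yap1 was at 27.3 and 42.9 in wild type against 32.1 to 46.3 in the isoform livers (0.16, SE 0.31). The target Ccn2 stayed at or below 5.75 in all 7 livers, and Ankrd1 was listed at 0 in each. Of 16 proliferation genes 6 were tested and 0 had an unadjusted limma p under 0.05. Mki67, a marker of dividing cells, was at 2.27 and 3.32 in wild type and 0 to 5.78 in the isoform livers, against 17.6 to 53.3 in the induced samples. Ptpn14, at most 6.87 here, was at 10.2 to 56.4 in the induced samples, and Hsd17b6 was at 0 to 30.7 there.

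Acute-phase genes separated the isoforms from each other more than they separated the pool from wild type. Saa2, a serum amyloid A protein secreted by hepatocytes (chr7:46751790-46754313, plus strand), was at 3.4 and 78.2 in wild type, 146, 21.9 and 21.3 with skip 1 alone and 3050 and 915 with skip 2 alone. Both skip 2 livers were above all others, and the wild type livers differed from each other more than skip 1 did from wild type. Saa2 rose in skip 2 against wild type by 6.49 (SE 1.02, limma adjusted p = 0.0183) and had a difference of 5.31 against skip 1 (SE 0.93, interval 3.37 to 7.25, limma adjusted p = 0.0515). Against wild type the call was lost without wild type replicate 1 (4.40, limma adjusted p = 0.235), without skip 2 alone replicate 1 (5.62, 0.631) and without replicate 2 (7.35, 0.0573). It was also lost with only genes averaging 50 or more (limma adjusted p = 0.0513) and with only the 7 livers in the fit (adjusted p = 0.19). Over all alternatives the difference ran from 4.40 to 8.57.

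Saa1, its neighbour and paralog (chr7:46740497-46742980, minus strand), followed the same order at 30.6 and 168 in wild type, 264, 34.5 and 42.7 with skip 1 alone and 2390 and 887 with skip 2 alone. The difference between isoforms was 4.29 (SE 0.86, limma adjusted p = 0.0943). Lcn2, a siderophore-binding protein made by hepatocytes in inflammation and by neutrophils (chr2:32384633-32388252, minus strand), was at 3.4 and 2.49 in wild type, 13.2, 4.6 and 0 with skip 1 alone and 83.2 and 60.4 with skip 2 alone. It differed by 4.07 between isoforms (SE 0.73, limma adjusted p = 0.0515) and by 4.20 from wild type (adjusted p = 0.108). Orm2, an acid glycoprotein (chr4:63362449-63365878, plus strand), was at 6.8 and 6.65 in wild type, 21.4, 6.9 and 6.39 with skip 1 alone and 112 and 93.4 with skip 2 alone. Its difference between isoforms was 3.24 (SE 0.88, limma adjusted p = 0.454). In all 4 genes the highest skip 1 value came from replicate 1, and without it Lcn2 (4.93), Saa2 (6.21) and Saa1 (5.21) were called between the isoforms. Saa3, too low to be tested, reached 50.9 and 11 with skip 2 alone against 9.87 or less elsewhere.

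Abundant plasma proteins of the same list had smaller differences, again with skip 2 highest. Hpx, the heme-binding hemopexin, was at 1400 and 2090 in wild type, 2460, 1860 and 1590 with skip 1 alone and 4630 and 3690 with skip 2 alone (1.09 between isoforms, SE 0.30). Hp, haptoglobin, was at 479 and 944, then 1010, 584 and 666, then 1710 and 1510 (1.13, SE 0.33). The inter-alpha-inhibitor chain Itih4 was at 1100 and 1850, then 1490, 1430 and 1810, then 3140 and 3370 (1.05, SE 0.31). In these 3 genes the skip 2 livers lay above the other 5. The protease inhibitor Serpina3n was at 212 and 189 in wild type, 258, 166 and 182 with skip 1 alone and 570 and 385 with skip 2 alone (1.24, SE 0.29, limma adjusted p = 0.274). The metal-binding Mt1 was at 0 and 4.16, then 11.5, 5.75 and 1.07, then 17.3 and 17.9 (1.73, SE 0.74).

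Itih3 (0.98), Serpina3m (1.04) and Apcs (1.15) also had an unadjusted limma p under 0.05 between isoforms, and the other 12 genes tested did not. The fibrinogen chain Fgb was at 1470 and 2200 in wild type, 1250, 2140 and 2130 with skip 1 alone and 2030 and 2340 with skip 2 alone, and differed by 0.29 between isoforms (interval -0.36 to 0.93). Fga differed by 0.11 (interval -0.55 to 0.77), Fgg by 0.24, hepcidin (Hamp) by 0.10 and the endotoxin-binding Lbp by 0.05. Counting the list, 28 genes were listed and 24 tested. Between isoforms 23 were above 0, 12 had an unadjusted limma p under 0.05 and 16 did not overlap, all higher with skip 2, with a median of 1.01. Of all genes 2.94% and 11.8% were higher by those measures. Skip 2 against wild type gave 22 above 0, 13 at an unadjusted limma p under 0.05, 16 without overlap and a median of 0.92, beside 2.34% and 20.7% of all genes. The pooled comparison with wild type gave 20 above 0, a median of 0.41, 2 with an unadjusted limma p under 0.05 (Saa2 and Mt1) and 0 without overlap. In that comparison 2.38% and 5.14% of all genes were higher by those measures. The summed level of the 28 genes was 13660 and 16860 in wild type, 15670, 16180 and 16440 with skip 1 alone and 29720 and 24950 with skip 2 alone.

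**Figure D4:**
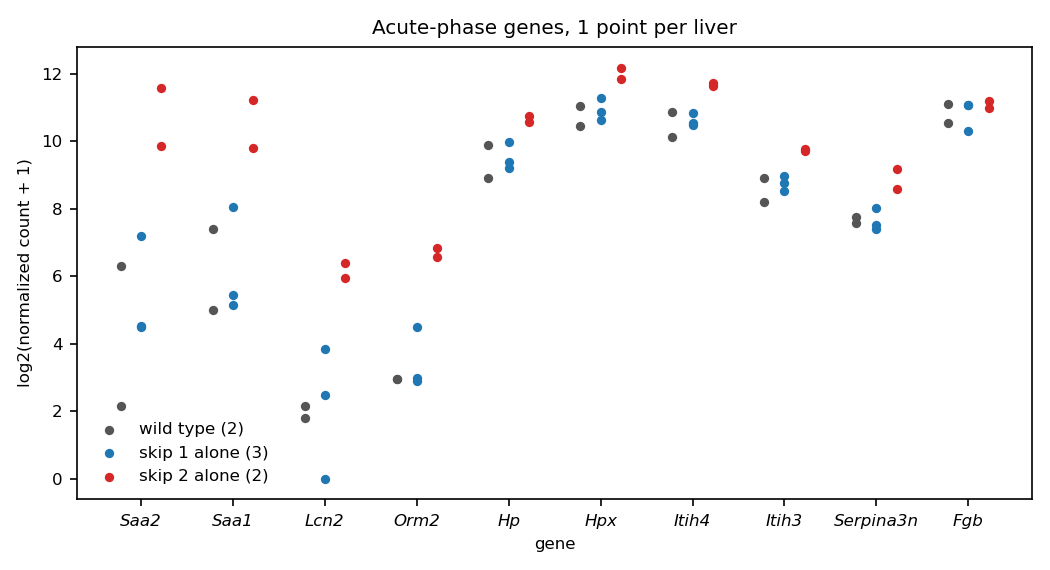
Log2(normalized count + 1) of 10 acute-phase genes, 1 point per liver, in wild type (grey, 2), skip 1 alone (blue, 3) and skip 2 alone (red, 2). The red points lie above all others for 9 genes, by most for Saa2 (915 and 3050 against at most 146), while for Fgb the groups overlap.

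Of 13 upstream receptors, kinases and transcription factors of the interleukin pathways, 6 were tested. In the pooled comparison and between isoforms 0 had an unadjusted limma p under 0.05. Pooled, 3 were above 0. Between isoforms 5 were above 0, with a median of 0.30 against 0.01 over all genes. Il6st was the 1 higher without overlap, where 11.8% of all genes were. The summed level of the 13 genes was 326 and 344 in wild type, 309, 307 and 323 with skip 1 alone and 351 and 372 with skip 2 alone. Stat3 was at 68.9 and 94.8 in wild type, 65.6, 95.3 and 87.2 with skip 1 alone and 72.7 and 98.6 with skip 2 alone (0.05 between isoforms, SE 0.26). The shared receptor chain Il6st was at 140 and 127, then 97, 127 and 133, then 156 and 146 (0.35, SE 0.23). Socs3 and Cebpd were below 7 in each liver and were not tested. Leukocyte markers are given beside these results because Lcn2 is also made by neutrophils. The summed level of the 3 neutrophil markers measured was 1.13 and 1.71 in wild type, 4.93, 2.36 and 5.41 with skip 1 alone and 2.37 and 2.78 with skip 2 alone. Both skip 2 sums lay under what 3 reads are worth in those libraries (3.47 and 4.12). None of the 3 markers was high enough to be tested, so these sums carry little information on neutrophils. Ptprc, the pan-leukocyte CD45, was at 6.88 and 6.73 in wild type, 3.33, 5.83 and 6.48 with skip 1 alone and 9.37 and 15.3 with skip 2 alone (1.10 between isoforms, limma adjusted p = 0.594). Its part in the acute-phase differences was not tested. In the induced samples Saa2 was at 1.26 to 27.9 and Lcn2 at 15.1 to 72.5.

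Interferon-stimulated genes held a few members that were higher with skip 2. Of 27 listed, 16 were tested, and between isoforms 4 were higher and 1 lower at an unadjusted limma p under 0.05, beside 2.94% and 3.73% of all genes. Ifit3 was at 2.27 and 2.49 in wild type, 3.29, 1.15 and 2.13 with skip 1 alone and 9.25 and 9.61 with skip 2 alone (1.77, SE 0.51). The GTPases Gbp7 (1.07), Igtp (0.92) and Irgm1 (0.75) were the other 3, and Bst2 (-0.59) was the lower one. The pooled comparison gave 0.

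Several clock-controlled genes divided the livers along a line that was not the study's grouping, and those shown were chosen after their values were seen. Usp2, a deubiquitinase with a strong daily rhythm, was at 50.2 and 4.28 in wild type, 44.1, 4.74 and 0 with skip 1 alone and 48.8 and 26.9 with skip 2 alone. Wild type replicate 1, skip 1 alone replicate 1 and both skip 2 livers were high, and the other 3 livers were low. Tef, a PAR-domain transcription factor that binds D-boxes, gave the same division at 113 and 27.6, then 86.8, 31.2 and 28.3, then 96.4 and 103. The clock repressor Per3 was at 16.9 and 0.832, then 11.5, 4.6 and 1.07, then 18.5 and 12.4. Per2 was at 29.5 and 8.31, then 26.3, 13.8 and 8.52, then 26.6 and 33. In each of these 4 genes the lowest of the high livers exceeded the highest of the low ones. Nr1d1, the clock repressor REV-ERB alpha, did not follow the division, at 36.2 and 48.2 in wild type, 52.6, 71.3 and 88.4 with skip 1 alone and 50.9 and 56.3 with skip 2 alone. It was the 1 gene of the list without overlap in the pooled comparison (0.57, SE 0.37, limma adjusted p = 1).

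Other genes ran the opposite way. Elovl3, a rhythmic fatty acid elongase, was at 11.3 and 222 in wild type, 16.4, 131 and 240 with skip 1 alone and 13.9 and 13.7 with skip 2 alone. Arntl, the clock activator BMAL1, was low everywhere but was highest in wild type replicate 2 (9.48) and skip 1 alone replicate 3 (10.2). The metabolic genes Alas1 and Thrsp had the same division as Usp2. Alas1, the rate-limiting enzyme of heme synthesis, was at 712 and 62.7 in wild type, 744, 272 and 36.4 with skip 1 alone and 384 and 362 with skip 2 alone. Thrsp, a lipogenic protein, was at 541 and 51.5, then 413, 58.7 and 65, then 243 and 461. These values were set side by side after they were seen, and the 2 sets of livers are a description and not groups to be tested.

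**Figure D5:**
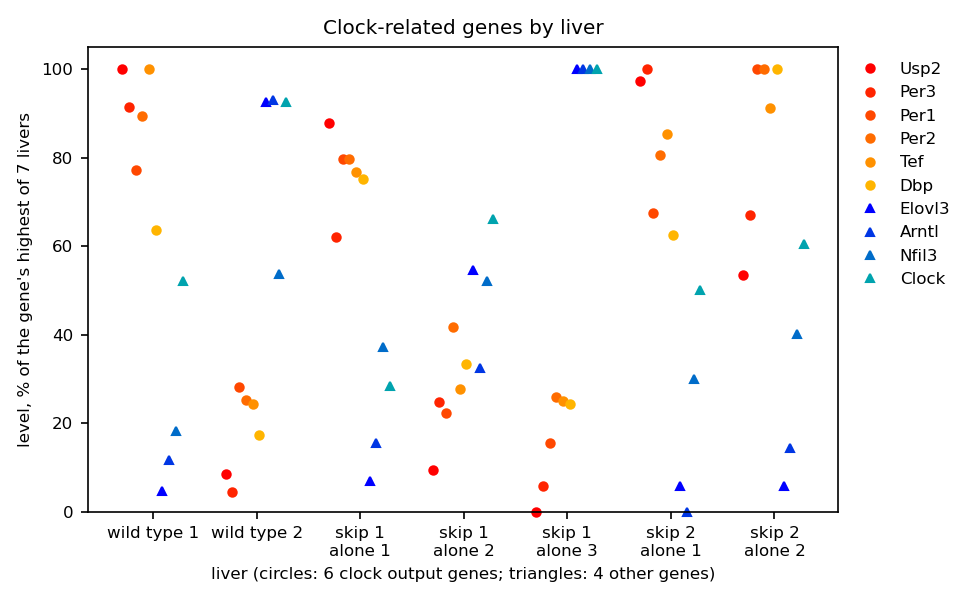
Level of 10 clock-related genes in each of the 7 livers, as a percentage of that gene's highest liver, with circles for Usp2, Per3, Per1, Per2, Tef and Dbp and triangles for Elovl3, Arntl, Nfil3 and Clock. Circles are high in wild type replicate 1, skip 1 alone replicate 1 and both skip 2 livers, where Usp2 is 26.9 to 50.2 against at most 4.74 in the other 3, and the Elovl3 triangles are low there.

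The division fell across wild type and skip 1 but held both skip 2 livers on one side. The clock output list therefore showed little in the pooled comparison, where 11 of 13 genes were tested, the median was 0.10 and 0 had an unadjusted limma p under 0.05. Between isoforms the median was 0.97, 10 were above 0, and Tef, Hlf, Per1 and Usp2 had an unadjusted limma p under 0.05, all higher with skip 2, beside 2.94% of all genes. Its summed level was 521 and 216 in wild type, 465, 263 and 262 with skip 1 alone and 499 and 505 with skip 2 alone. The labels used here give no time of collection, and the part of the clock in the other isoform differences cannot be told apart from the isoform with these livers alone. Within wild type, the liver with high clock output had the lower Saa2 (3.4 against 78.2), and within skip 1 it had the higher Saa2 (146 against 21.9 and 21.3). Each of these contrasts has 1 liver on the high side, and the value of 3.4 is worth about 3 reads. The part of the clock in the Saa2 difference was not tested. The mean level of the clock output list was also used as a covariate in a fit on the 7 livers, chosen after the data were seen. With it Saa2 differed by 5.66 between isoforms (limma adjusted p = 0.174) and by 6.76 from wild type (limma adjusted p = 0.0943). The fit on the same 7 livers without that covariate gave 5.31 (limma adjusted p = 0.288) and 6.49 (limma adjusted p = 0.19).

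Few feeding and lipid genes had an unadjusted limma p under 0.05 in the pooled comparison, though most members of each list were above 0. Elovl6, an elongase of lipogenesis (chr3:129532355-129638495, plus strand), was at 37.4 and 21.6 in wild type, 55.9, 57.5 and 32 with skip 1 alone and 109 and 108 with skip 2 alone. Skip 2 was highest, with a pooled difference of 1.18 (SE 0.42, limma adjusted p = 1) and 1.19 between isoforms. The desaturase Fads1 was at 228 and 214 against 273 to 423 (0.52, SE 0.25), and these were the 2 of 15 lipogenic genes with an unadjusted limma p under 0.05. Scd1, the main stearoyl desaturase, was at 2070 and 1650 in wild type, 1570, 8390 and 4370 with skip 1 alone and 1800 and 1950 with skip 2 alone, so 2 skip 1 livers were high and the third was not. Of 24 cholesterol genes, 19 were above 0 with a median of 0.21, 4 did not overlap and 2 had an unadjusted limma p under 0.05. Fdft1, squalene synthase, was at 116 and 128 against 151 to 200 (0.48, SE 0.21). Of 14 fasting genes, 12 were above 0 with a median of 0.21, and Igfbp1 was the 1 at that threshold. The 15 lipogenic genes had 10 above 0 and a median of 0.10. The lipogenic, cholesterol and fasting members at that threshold were all higher, where 2.38% of all genes were. Without overlap 5.14% of all genes were higher, and the median over all genes was 0.01.

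Ppp1r3c, a glycogen-targeting phosphatase subunit, was at 34 and 81.4 in wild type, 8.22, 11.5 and 63.9 with skip 1 alone and 8.09 and 8.24 with skip 2 alone. Skip 1 alone replicate 3 was as high as wild type while the other 4 isoform livers were low, and the pooled difference was -1.89 (SE 0.69, limma adjusted p = 1). Mpc1, the mitochondrial pyruvate carrier, was lower in skip 2 alone, at 50 and 42.1 against 90.8 and 72.4 in wild type and 70 to 83.1 with skip 1 alone (-0.81 from wild type, SE 0.27). Mprip, a myosin phosphatase partner, had -0.91 and Oplah, an enzyme of glutathione turnover, -0.96 in the same comparison. Among genes lower with skip 2 than with skip 1, Fads3 was at 98.3 and 85.1 against 207, 272 and 148 (-1.14, SE 0.34), and Abi3, an actin regulator, at 52.8 and 70 against 138, 140 and 236 (-1.44, SE 0.45). Each had an adjusted limma p above 0.4.

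Of the stress lists, heat shock and immediate early genes were mostly above 0 in the pooled comparison. Of 9 heat shock genes tested, 7 were above 0 with a median of 0.47, and 2 had an unadjusted limma p under 0.05. Both were higher, where 2.38% of all genes were, and the median over all genes was 0.01. The chaperone Hsp90ab1 was at 396 and 557 in wild type, 778, 797 and 605 with skip 1 alone and 765 and 593 with skip 2 alone (0.58, SE 0.24), and Hspb1 was at 2.27 and 3.32 against 4.12 to 14.8 (1.37, SE 0.49). All 8 immediate early genes tested were above 0 with a median of 0.67. Mafk, whose groups overlapped, was the 1 with an unadjusted limma p under 0.05. The summed level of the 17 listed genes was 138 and 55.8 in wild type and 85.5 to 106 in the isoform livers. All isoform livers thus lay between the 2 wild type livers in that sum. Egr1, an early growth response factor, was at 1.13 and 0.831 against 1.64, 6.9, 3.2, 10.4 and 6.87. Its wild type values lie under what 3 reads are worth (3.40 and 2.49). In the other stress lists 11 of 13 ER stress genes (median 0.22), 6 of 10 NRF2 genes (0.04) and 2 of 8 p53 genes (-0.10) were above 0. No gene of the ER stress, NRF2, p53 or antigen presentation lists had an unadjusted limma p under 0.05 in the pooled comparison.

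Major urinary protein genes, which are hepatocyte products driven by growth hormone, were below 0 in 15 of 16 tested, with a pooled median of -0.45 and 0 at an unadjusted limma p under 0.05. Mup20 was at 9160 and 7960 in wild type against 6730, 6790, 6600, 6940 and 5010 (-0.42, SE 0.31), and Mup3 and Mup21 were the other members without overlap. Of all genes 3.47% were lower without overlap. Their summed level was 105900 and 80370 in wild type, 58300, 41790 and 73280 with skip 1 alone and 90650 and 92690 with skip 2 alone, so the skip 1 livers were the low ones. These genes are close paralogs that can share reads, and single members are uncertain. Of bile acid genes, the receptor Nr1h4 was at 89.4 and 46.3 in wild type, 42.9, 44.8 and 50.2 with skip 1 alone and 85.3 and 90.3 with skip 2 alone. It differed by 0.92 between isoforms (SE 0.33, limma adjusted p = 0.594).

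Markers of other liver cells held few genes at an unadjusted limma p under 0.05 in the pooled comparison. In bulk tissue, fewer cells of a type and less RNA per cell cannot be told apart. Of 10 Kupffer cell and 11 endothelial genes tested, 0 had an unadjusted limma p under 0.05 in the pooled comparison, and 0 between isoforms. Between isoforms 9 Kupffer genes (median 0.31) and 7 endothelial genes (median 0.04) were above 0, where the median over all genes was 0.01. The summed level of the Kupffer list was 265 and 388 in wild type, 339, 316 and 304 with skip 1 alone and 414 and 360 with skip 2 alone. The Kupffer marker Clec4f was at 51 and 93.1 in wild type against 50.6 to 90.6. Of 8 stellate and fibroblast genes, 6 were above 0 in the pooled comparison, with a median of 0.58 against 0.01 over all genes. Col1a1 differed by 0.82 (SE 0.53) and Col1a2 by 0.73 (SE 0.41). Col3a1, a fibrillar collagen, was the 1 with an unadjusted limma p under 0.05, at 11.3 and 16.6 against 37.8, 27.6, 19.2, 22 and 26.1 (0.87, SE 0.31). At that threshold 2.38% of all genes were higher. Dcn, decorin, was at 31.4 and 27.8 against 35.6, 34, 66.8, 70.5 and 68.4 (0.80, SE 0.39), with both skip 2 livers among the highest 3. Rgs5, a pericyte gene of the same list, was at 23.8 and 23.3 against 8.22, 16.1, 17, 22 and 22 (-0.51, SE 0.40), lower without overlap. Summed over the 13 markers of this list, the level was 248 and 267 in wild type, 253, 284 and 301 with skip 1 alone and 334 and 332 with skip 2 alone. The biliary markers Krt19, Krt7, Epcam and Sox9 were at or below 2.13 in all 7 livers, and the fetal gene Igf2 was listed at 0. Of the 3 biliary-list genes tested, Spp1, osteopontin, which other cells also make, was at 9.07 and 3.33 in wild type, 6.58, 12.7 and 12.8 with skip 1 alone and 26.6 and 13.7 with skip 2 alone (1.11 pooled, SE 0.59). Pkhd1 had a difference of -0.56 and Bicc1 of 0.22. The summed level of the biliary list was 27.2 and 22.9 in wild type, 14.6, 26.8 and 45.4 with skip 1 alone and 45.6 and 40.6 with skip 2 alone. Alb was at 38900 and 36700 in wild type against 49200 to 54500 in the isoform livers (0.44, SE 0.44).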

How the data were processed

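RNA sequencing libraries were strand-specific, per the labels. The deposited table holds a signal per gene: normalized counts made by the authors, with FastQC, STAR, RSEM and DESeq2 and the build mm10 named in the submitters' processing notes; no version or setting is stated in those notes. Some 60.0% of values (the median over libraries) were whole multiples of what 1 read is worth within 0.001, which gave estimated reads per library; count tests on the deposited values were not used. A second deposited table of z-scores was not used here.

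Values were analysed as log2(value + 1) in limma 3.58.1 (R 4.3.3), fitted over all 18 libraries of the table with no covariate. In each fit the libraries share 1 estimate of spread. The pooled comparison gave the 5 isoform livers 1 coefficient, and the other comparisons gave each group its own. With 1 coefficient per isoform and equal weights, the pooled difference of Saa2 was 3.83 (SE 0.857), against 3.30 (SE 1.34) in the main fit. Benjamini-Hochberg adjustment covered the 6592 of 14086 genes with a mean of at least 10. The fits were tested on simulated data. Fold changes on this scale understate those of low genes. Gene positions are from GENCODE vM21 on mm10, and 98.3% of symbols matched a reference table. Promoter sequences are RefSeq's.

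The livers compared, the gene lists (37 lists, 514 genes) and the rule for named genes were chosen with earlier results of these data known. The rule took genes called in any comparison, the non-overlapping genes with the smallest p (up to 12 per direction for the pool and 6 for the others) whose higher group averaged 50 or more, up to 4 members of each list by smallest pooled p, and a few fixed genes. Some genes that the rule takes are not reported here. Other list members were named after their values were seen, to show each list's range. The 3 comparisons with wild type share the same 2 wild type libraries. The alternatives were pseudocounts of 0.5 and 5, no filter, a stricter filter (mean ≥50), quantile and upper-quartile scaling, only the 7 livers, array weights, voom run on the estimated reads, a covariate for log2 depth, equal weights per isoform and leaving out each liver. A covariate for clock output genes was added after the data were seen.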

Additional observations from a re-analysis of the deposited data

Results flagged for a closer look

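Among the 5 livers with an isoform alone, 53 named genes were examined for a single liver far from the other 4, and 3 had one. Chance alone gives such a gap in about 1 in 20 groups. B430010I23Rik was at 403 in skip 1 alone replicate 1 against at most 266 in the other 4. D330041H03Rik was at 360 in the same liver against at most 251. Ppp1r3c was at 63.9 in skip 1 alone replicate 3 against at most 11.5.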

How the results depend on the processing

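No paired analysis was possible because the labels do not tie a library of one group to a library of another. For the pooled comparison no gene was called under any alternative that kept all 7 livers, and leaving out 1 liver gave 0 to 2 genes. Skip 1 against wild type gave 0 to 1 when 1 liver was left out. Skip 2 against wild type gave 4 genes with a pseudocount of 5 and 4 with voom, 2 without a filter and 2 with array weights, 0 with a mean of at least 50, 0 with only the 7 livers and 0 with the clock covariate, and 0 to 1 when 1 liver was left out. Skip 2 against skip 1 gave 4 with a pseudocount of 5, 4 without a filter and 4 with voom, 2 with upper-quartile scaling, 3 with array weights, 1 with depth as a covariate and 2 with the clock covariate (Gm15713 and 4933431G14Rik), and 0 to 3 when 1 liver was left out. The clock covariate was chosen after seeing the data and was fitted on the 7 livers only. On those livers the fit without it called 0 genes in each comparison. Voom moved the median of all genes by -0.165 in skip 2 against wild type and by -0.132 in skip 2 against skip 1.

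Pooled differences that were never called turned sign for 5 genes. Mki67 became 0.0417 with a pseudocount of 5, 0.114 with array weights, 0.386 with depth as a covariate and 0.0161 with equal weights per isoform, and ran from -0.295 to 0.396 when 1 liver was left out. Ctnnb1 became -0.018 with quantile scaling and ran from -0.0014 to 0.206. Axin2 became 0.125 with depth as a covariate and ran from -1.12 to 0.519. Yap1 ran from -0.159 to 0.474 and Glul from -0.234 to 0.0032 when 1 liver was left out. The cause was not tested. Of 1242 alternative values over 73 gene results, 1197 kept direction and side of the threshold, 6 lost a call, 27 gained one and 12 turned sign. All 6 lost calls were those of Saa2 in skip 2 against wild type, the only result called in the main fit. For the other gene results, keeping the side of the threshold meant staying uncalled. Libraries of 385526 to 734822 estimated reads and 2 wild type livers limit what can be detected.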

Other observations

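Globin genes, which mark red blood cells, were listed in an uneven way across close paralogs. Hbb-b1 was at 128 and 57.3 in wild type, 97, 143 and 84.2 with skip 1 alone and 185 and 1.37 with skip 2 alone. Hbb-bs was listed at 0 in 6 livers and at 96.1 in skip 2 alone replicate 2, the liver with the low Hbb-b1. The sum of the pair was 57.3 to 185 over the 7 livers. Hba-a1 was at 44 to 92.1 in 6 livers and listed at 0 in skip 2 alone replicate 1, where Hba-a2 was at 78.6 and elsewhere listed at 0. The sum of that pair was 44 to 92.1, so single globin genes are uncertain here.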
